A study of Mus musculus with 6 samples.

Results

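Genes of the antioxidant defence, 10 in all, were followed in the livers of LERKO and control (CT) mice: Nfe2l2, which encodes the transcription factor NRF2, and 9 genes for enzymes of the defence, several of them known NRF2 targets (Gclc, Gclm, Txnrd1, Srxn1, Prdx1, Nqo1, Sod1, Sod2 and Cat). They were taken by name. Each gene was read from probe sets that the array's annotation pairs with that gene alone, and the probe set of highest mean over the 6 arrays was used where a gene had several. All 10 genes had such a probe set, out of 18820 genes on the array that did. LERKO mice lack estrogen receptor alpha (ERα) selectively in the liver. They carry ERα fl/fl alleles, in which loxP sites flank part of the gene, together with an Alb-cre transgene that produces cre recombinase under the albumin promoter. This promoter is active in hepatocytes, and the paper cites reports that non-parenchymal liver cells do not express it. CT mice carry the same ERα fl/fl alleles without cre, so that the transgene and the loss of ERα cannot be told apart in this comparison. All were C57BL/6J females, the age of the animals on the arrays is not given in the sources used here, and each of the 3 LERKO and 3 CT mice contributed 1 Affymetrix Mouse Gene 1.1 ST array of liver RNA.

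NRF2 is held in the cytoplasm by KEAP1, which marks it for degradation. Oxidants and electrophiles modify cysteines of KEAP1, NRF2 then accumulates in the nucleus, pairs with a small MAF protein and binds the antioxidant response element in the promoters of genes for glutathione synthesis, thioredoxin reduction and quinone detoxification. Superoxide dismutases turn superoxide into hydrogen peroxide, which catalase, peroxiredoxins and glutathione peroxidases remove, and hepatocytes are rich in all of these enzymes.

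The core of the antioxidant response element, TGACNNNGC, was searched on both strands of the RefSeq promoter windows (GRCm38.p6), which run from 250 bases before to 50 bases after each start. The windows of 9 of the 10 genes were in the table (Gclc was not), and 6 of the 9 held the core in at least 1 window, beside 14% of the 27025 genes in the table. Txnrd1 has 3 windows, of which 1 held it. The 6 matches are shown because NRF2 binds its targets through this core, though a match alone does not show that it binds there. They are written 5′ to 3′ along the strand of the gene with 10 bases on each side, and the core is in capitals. In Nfe2l2 the core reads along the gene, and in the other 5 it reads along the opposite strand, so that it appears as GCNNNGTCA with its free bases in between.
Nfe2l2, chr2:75704885-75704913, minus strand: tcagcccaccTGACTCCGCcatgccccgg
Gclm, chr3:122245413-122245441, plus strand: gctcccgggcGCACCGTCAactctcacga
Txnrd1, chr10:82859104-82859132, plus strand: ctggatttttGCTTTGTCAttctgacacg
Srxn1, chr2:152105542-152105570, plus strand: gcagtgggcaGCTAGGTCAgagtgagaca
Sod1, chr16:90220696-90220724, plus strand: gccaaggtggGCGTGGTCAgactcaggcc
Prdx1, chr4:116685456-116685484, plus strand: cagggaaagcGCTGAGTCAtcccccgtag
The match lay 240 bases before the start in Nfe2l2, 134 before it in Gclm, 133 in Prdx1, 92 in Txnrd1 and 56 in Sod1, and at base 29 after the start in Srxn1. Each distance is from the start of the window that held the match. For Txnrd1 the match begins at base 82859114, inside the gene, which begins at 82833951, so that start is not the first of the gene. These matches describe the sequence and do not show binding in these livers.

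Levels are given as RMA signal on the log2 scale, so that a difference of 1 is a factor of 2 in signal. Esr1, which encodes ERα, was at 6.75, 7.06 and 6.77 in LERKO replicates 1 to 3, against 8.45, 8.78 and 8.29 in CT replicates 1 to 3, a 3.13-fold lower level (95% interval 2.44 to 4.02-fold lower, adjusted p = 0.149 from limma). The hepatocyte markers were high in every mouse, with a summed signal of 61290 to 63933 in LERKO and 62088 to 66153 in CT livers. In a pair of arrays the markers of other organs were high. The 9 measured adrenal markers, among them Cyp21a1 and Star of steroid synthesis, were all highest in LERKO replicate 2, and their summed signal ran from 1377 to 9042 in LERKO and from 1320 to 1810 in CT. Of these Scarb1 was high in every mouse, at 10.26 to 10.77, and made up most of the sum outside LERKO replicate 2. Cyp21a1 was at 11.67 in LERKO replicate 2 and at 3.36 to 4.05 in the other mice. In CT replicate 3 the 9 measured pancreas markers, the 6 muscle markers and the 5 squamous epithelium markers were all highest. The summed signals of these 3 lists were 136 to 154, 101 to 255 and 73.3 to 79.8 in LERKO livers and 146 to 2267, 83.1 to 958 and 62.7 to 1369 in CT livers. The 4 measured cholangiocyte markers summed to 147 to 156 in LERKO and 169 to 215 in CT livers. Of these only Sox9 reached a signal of 100, in 2 CT arrays and 0 LERKO arrays, and Krt19 had a slightly higher mean in LERKO livers. The 2 measured red blood cell markers summed to 178 to 192 in LERKO and 199 to 285 in CT livers. Of this pair only Alas2 reached a signal of 100, with a mean of 7.26 in LERKO and 7.67 in CT, whereas Slc4a1 had the higher mean in LERKO livers. The summed markers of macrophages, endothelial cells and stellate cells overlapped between the groups. The part of any of this RNA in the results on the antioxidant genes was not tested, and the 10 genes are given with and without these mice where leaving one out turned the sign or moved the log2 fold change by more than 1.5 times. In whole liver RNA, fewer cells of a type and less RNA per cell cannot be told apart.

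No difference of the 10 antioxidant genes between LERKO and CT livers passed the test against the spread between mice. By limma, 0 of 10 had an adjusted p under 0.05, beside 0% of the 10633 probe sets tested, and their adjusted p values ran from 0.712 to 0.987. At an unadjusted p under 0.05 there were also 0 of 10, beside 6.98% of all probe sets. For 0 of the 10 genes did all LERKO mice lie on one side of all CT mice, beside 13% of all probe sets. In LERKO livers 4 of the genes had a higher mean and 6 a lower mean, with log2 fold changes of LERKO against CT from −0.17 for Gclc to 0.26 for Srxn1. The median over the 10 was −0.01, and the median over all probe sets tested was also −0.01.

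The intervals give the range of differences in array signal that the 6 mice allow, and no other measure of these transcripts was used. For each of the 10 genes the 95% interval of the fold change lay within 1.5-fold in either direction, beside 85.3% of all probe sets tested. The widest reached 1.46-fold higher in LERKO for Srxn1 and 1.43-fold lower for Gclc. The within-group SD of the 10 genes ran from 0.048 to 0.20 with a median of 0.10, beside a median of 0.12 over all probe sets.

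**Figure D1:**
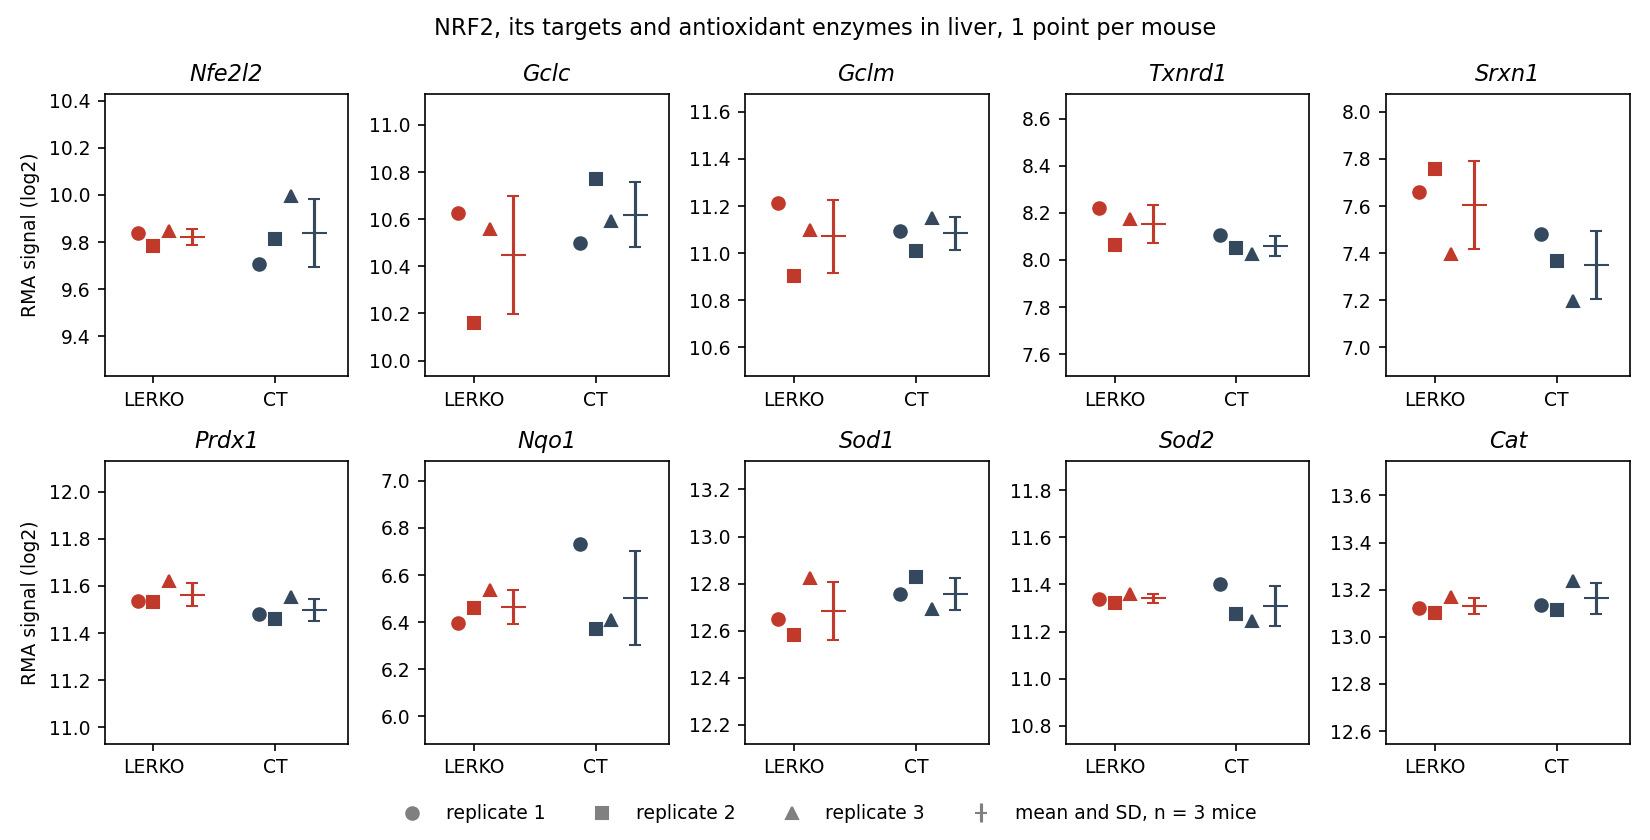
RMA signal (log2) of the 10 genes in each mouse beside the group mean and its SD for the 3 LERKO mice (red, left) and the 3 CT mice (dark blue, right); symbols mark the replicate number, and every panel spans the same number of log2 units. The values of the 2 groups overlap in all 10 panels, and the lowest Gclc value belongs to LERKO replicate 2.

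Nfe2l2, the transcription factor itself, had means that differed by 0.02 between the genotypes. Its signal was 9.84, 9.78 and 9.85 in LERKO replicates 1 to 3, against 9.71, 9.81 and 9.99 in CT replicates 1 to 3. The LERKO mice lay close together, inside the span of the CT mice, and the means were 9.82 ± 0.034 in LERKO and 9.84 ± 0.15 in CT (SD, n = 3 each). The log2 fold change was −0.02 (95% interval −0.23 to 0.20, standard error 0.09, limma adjusted p = 0.981). It was 0.06 without CT replicate 3, the highest of the CT mice, and 0.0035 without LERKO replicate 2, so its sign rests on single mice. NRF2 is controlled largely through the stability of its protein, which the arrays do not measure.

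Gclc and Gclm encode the catalytic and the modifier subunit of glutamate-cysteine ligase, the rate-limiting enzyme of glutathione synthesis. Gclc was at 10.63, 10.16 and 10.56 in LERKO replicates 1 to 3, against 10.50, 10.77 and 10.59 in CT replicates 1 to 3. LERKO replicate 2 was the lowest mouse, while the other LERKO mice lay among the CT mice. The means were 10.45 ± 0.25 in LERKO and 10.62 ± 0.14 in CT (SD, n = 3 each), and the log2 fold change was −0.17 (95% interval −0.51 to 0.17, standard error 0.14, limma adjusted p = 0.815). Without LERKO replicate 2, the mouse with the adrenal genes, it was −0.03.

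For Gclm the signal was 11.21, 10.90 and 11.10 in LERKO replicates 1 to 3, against 11.09, 11.01 and 11.15 in CT replicates 1 to 3. Here too LERKO replicate 2 was the lowest mouse, but LERKO replicate 1 was the highest. Gclm had a log2 fold change of −0.01 (95% interval −0.25 to 0.22, standard error 0.10, limma adjusted p = 0.987), which was 0.07 without LERKO replicate 2 and 0.02 without CT replicate 3.

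Txnrd1 is the cytosolic thioredoxin reductase, a selenoprotein that returns oxidised thioredoxin to its reduced form with electrons from NADPH. It was at 8.22, 8.06 and 8.17 in LERKO replicates 1 to 3, against 8.11, 8.05 and 8.02 in CT replicates 1 to 3. LERKO replicate 1 and LERKO replicate 3 were above every CT mouse and LERKO replicate 2 lay among them. The log2 fold change was 0.09 (95% interval −0.08 to 0.26, standard error 0.07, limma adjusted p = 0.811), and it was 0.14 without LERKO replicate 2.

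Srxn1, the sulfiredoxin that repairs overoxidised peroxiredoxins, had the largest difference of the 10 genes. Its signal was 7.66, 7.76 and 7.40 in LERKO replicates 1 to 3, against 7.48, 7.37 and 7.20 in CT replicates 1 to 3. LERKO replicates 1 and 2 were the highest mice, and LERKO replicate 3 lay below CT replicate 1, so the groups overlapped. With means of 7.61 ± 0.19 in LERKO and 7.35 ± 0.14 in CT (SD, n = 3 each), Srxn1 was 1.19-fold higher in LERKO livers, a log2 fold change of 0.26 (95% interval −0.03 to 0.55, standard error 0.12, unadjusted p = 0.0754 and adjusted p = 0.712 by limma). The extremes were the mice whose arrays held genes of other organs. LERKO replicate 2 was the highest of the 6 and CT replicate 3 the lowest. The log2 fold change of Srxn1 was 0.18 without LERKO replicate 2, 0.18 without CT replicate 3 and 0.10 without both. Leaving out LERKO replicate 3 gave 0.36, with an unadjusted p of 0.0201 and an adjusted p of 0.943 from limma.

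Prdx1 is a peroxiredoxin that reduces hydrogen peroxide and is itself a substrate of sulfiredoxin. The probe set of highest mean was at 11.54, 11.53 and 11.62 in LERKO replicates 1 to 3, against 11.48, 11.46 and 11.55 in CT replicates 1 to 3. CT replicate 3 lay above the lower pair of LERKO mice, and the log2 fold change was 0.06 (95% interval −0.10 to 0.22, standard error 0.07, limma adjusted p = 0.842). Prdx1 has a further probe set of its own, at 11.10, 11.01 and 11.11 in LERKO and 11.04, 10.98 and 10.96 in CT, with a log2 fold change of 0.08 (limma adjusted p = 0.820, standard error 0.07). Prdx1 is on chromosome 4. Among the 20 probe sets next to the first one in the array's numbering, 19 of 20 with a gene name are on chromosome 16, whereas for the further probe set it is 17 of 17 on chromosome 4. Which transcripts the first probe set reads was not tested.

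Nqo1 encodes the quinone reductase NAD(P)H dehydrogenase (quinone 1) and serves widely as a readout of NRF2 activity. It was at 6.40, 6.46 and 6.54 in LERKO replicates 1 to 3, against 6.73, 6.37 and 6.41 in CT replicates 1 to 3. Only CT replicate 1 reached a signal of 100, which is 6.64 on the log2 scale, so Nqo1 entered the test through 1 array of the 6. The other 9 genes reached it in all 6 arrays. Apart from CT replicate 1, all mice lay within 6.37 to 6.54, and Nqo1 had a log2 fold change of −0.04 (95% interval −0.31 to 0.23, standard error 0.11, limma adjusted p = 0.952), which was −0.09 without CT replicate 3. Without CT replicate 1, Nqo1 did not reach the signal minimum and was not fitted. CT replicates 2 and 3, at 6.37 and 6.41, both lay below the LERKO mean of 6.46. The negative sign therefore rests on CT replicate 1, the array through which Nqo1 entered the test.

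Sod1 and Sod2 are the cytosolic copper-zinc and the mitochondrial manganese superoxide dismutase. Sod1 was at 12.65, 12.58 and 12.82 in LERKO replicates 1 to 3, against 12.75, 12.83 and 12.69 in CT replicates 1 to 3, and LERKO replicate 3 lay level with the highest CT mouse. The log2 fold change was −0.07 (95% interval −0.28 to 0.14, standard error 0.09, limma adjusted p = 0.861), and it was −0.02 without LERKO replicate 2, the lowest mouse. A further probe set paired with Sod1 alone was at 11.55, 11.41 and 11.42 in LERKO and 11.35, 11.30 and 11.48 in CT. Its log2 fold change was 0.08 (limma adjusted p = 0.829, standard error 0.08), so the probe sets of Sod1 differed in sign. Sod1 is on chromosome 16, as are 20 of 20 named neighbours of the first probe set, while 17 of 18 neighbours of the further one are on chromosome 6.

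The signal of Sod2 was 11.34, 11.32 and 11.36 in LERKO replicates 1 to 3, against 11.40, 11.28 and 11.24 in CT replicates 1 to 3. The LERKO mice lay inside the span of the CT mice. Sod2 had means of 11.34 ± 0.020 in LERKO and 11.31 ± 0.085 in CT (SD, n = 3 each) and a log2 fold change of 0.03 (95% interval −0.14 to 0.20, standard error 0.07, limma adjusted p = 0.935). Without CT replicate 3, the lowest mouse, it was 0.00072.

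Cat, the peroxisomal catalase that splits hydrogen peroxide, was at 13.12, 13.10 and 13.17 in LERKO replicates 1 to 3, against 13.14, 13.12 and 13.24 in CT replicates 1 to 3. It spread least of the 10 genes over the 6 mice, by 0.14. The log2 fold change was −0.03 (95% interval −0.20 to 0.13, standard error 0.07, limma adjusted p = 0.930), and it was 0.0036 without CT replicate 3, the highest mouse, and −0.02 without LERKO replicate 2, the lowest.

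**Figure D2:**
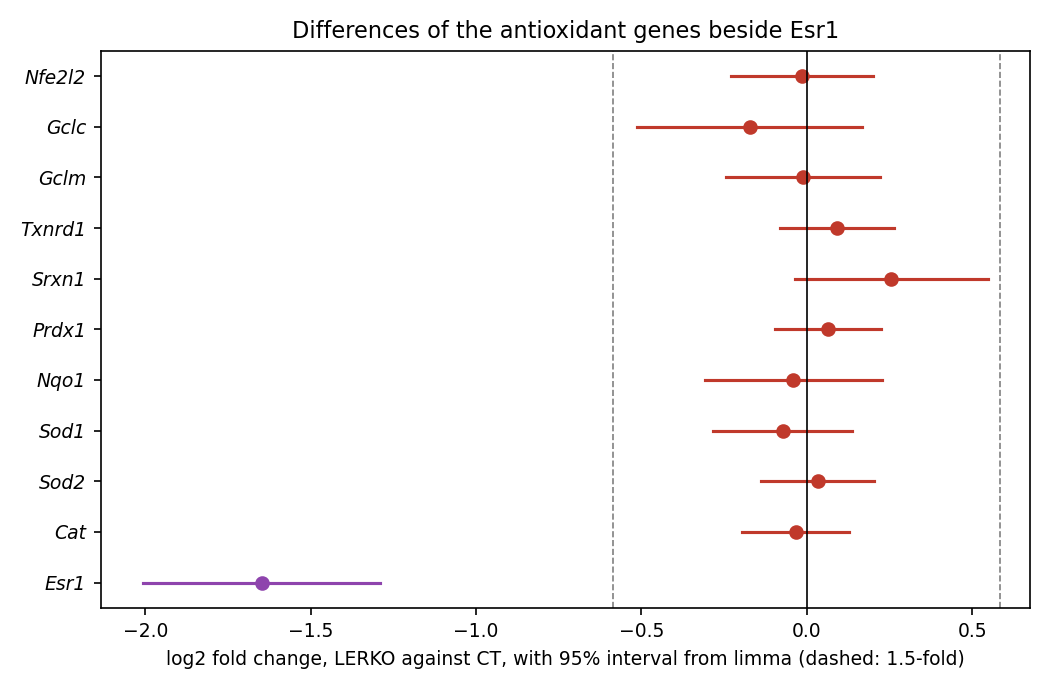
Log2 fold change of LERKO against CT for each of the 10 genes and Esr1 (points), with the 95% interval from limma (lines); dashed lines mark a 1.5-fold difference in either direction. All 10 intervals lie between the dashed lines and include 0, and Esr1 lies at −1.65.

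No mouse stood at the same end of the range for all 10 genes. LERKO replicate 2 was the lowest of the 6 mice for 4 genes (Gclc, Gclm, Sod1 and Cat) and the highest for Srxn1. CT replicate 3 was the lowest for Txnrd1, Srxn1 and Sod2 and the highest for Nfe2l2 and Cat. LERKO replicates 1 and 3 were the lowest for 0 genes. Averaged over the 10 genes, the deviation from the mean of all mice was 0.04, −0.06 and 0.03 on the log2 scale in LERKO replicates 1 to 3 and 0.02, −0.02 and −0.01 in CT replicates 1 to 3. The spread over the mice was widest for Gclc (0.61) and Srxn1 (0.56) and 0.36 or less for the others.

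Leaving out the pair of arrays with genes of other organs moved the median log2 fold change of the 10 genes to 0.05, beside a median of −0.03 over all probe sets, and 0 of 10 had an adjusted p under 0.05 from limma. With 2 mice left in each group, all LERKO mice then lay above all CT mice for Nfe2l2, Gclm, Txnrd1 and Prdx1, which is 4 of 10 genes. Over all probe sets 44.1% had groups that do not overlap, counted in either direction. The share of probe sets higher in LERKO alone was not computed for this setting.

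**Figure D3:**
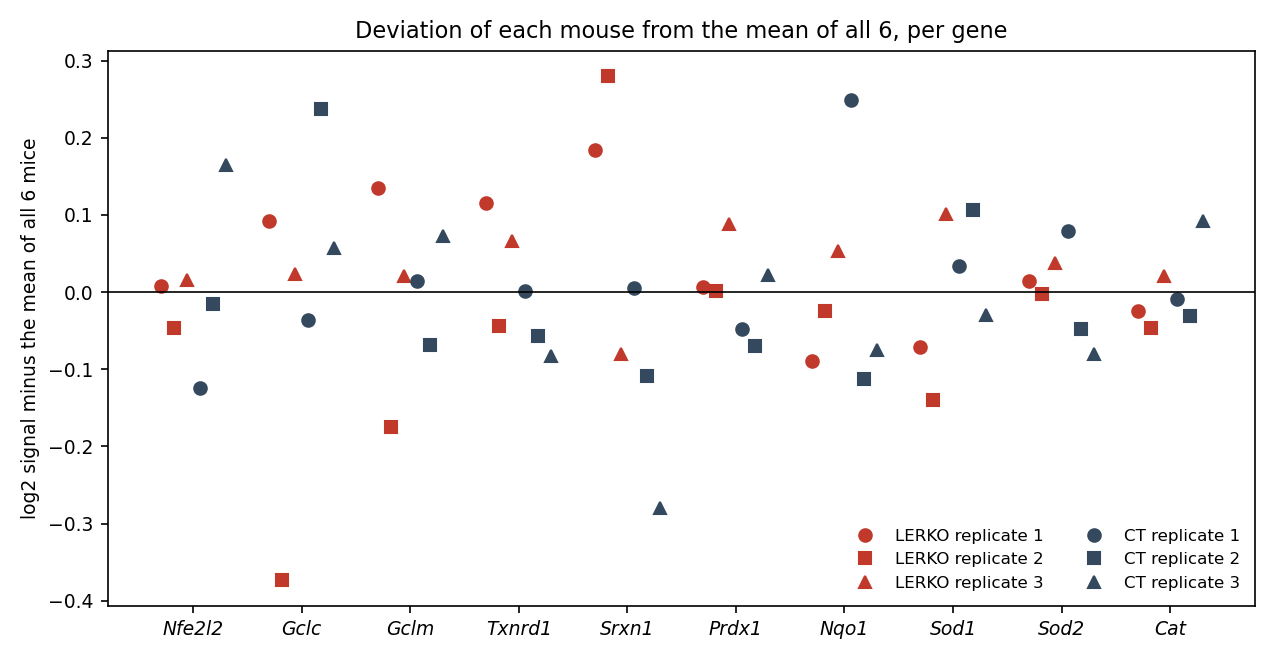
Deviation of each mouse from the mean of all 6 mice (log2 units) for each of the 10 genes, LERKO mice in red and CT mice in dark blue, with symbols for the replicate number. LERKO replicate 2 is the lowest for 4 genes, among them Gclc at −0.37, and the highest for Srxn1.

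The wider redox network was read from 8 lists that do not repeat the 10 genes, with 134 genes in all. Of these 125 had a probe set of their own and 97 passed the signal minimum, of which 54 were higher and 43 lower on average in LERKO livers, with a median log2 fold change of 0.01. By limma, 0 of 97 had an adjusted p under 0.05. At an unadjusted p under 0.05 there were 1 higher gene, beside 2.98% of all probe sets, and 3 lower genes, beside 4%. The groups did not overlap for 12 of 97, of which 6 were higher in all LERKO mice, beside 5.91% of all probe sets, and 6 were lower, beside 7.13%. For 85 of the 97 the 95% interval lay within 1.5-fold either way.

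Among the regulators of NRF2, 10 of 14 genes passed the signal minimum, 6 were higher and 4 lower on average, and the median log2 fold change was 0.01. Bach1, a repressor that competes with NRF2 for the antioxidant response element, was at 7.33, 7.45 and 7.31 in LERKO replicates 1 to 3, against 7.65, 7.56 and 7.47 in CT replicates 1 to 3. Every LERKO mouse was below every CT mouse, though LERKO replicate 2 and CT replicate 3 were separated only narrowly. Bach1 had a log2 fold change of −0.20 (unadjusted p = 0.0430 and adjusted p = 0.703 by limma, standard error 0.08). Nfe2l1, a factor related to NRF2, had 0.15, Mafg, a small MAF partner, 0.12, and Btrc, an adaptor of a ubiquitin ligase that acts on NRF2, −0.13. With 1 mouse left out in turn these ran from 0.07 to 0.21 for Nfe2l1, from 0.05 to 0.19 for Mafg and from −0.24 to −0.01 for Btrc, the ends for Btrc being without CT replicate 3 and without CT replicate 2. Keap1, named here for its role after its values were seen, was at 7.27, 7.22 and 7.28 in LERKO and 7.39, 7.24 and 7.34 in CT, with a log2 fold change of −0.07.

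Of 36 further NRF2 targets, 25 passed the signal minimum, with 13 higher and 12 lower on average and a median of 0.01. Osgin1, an oxidative stress induced growth inhibitor, was at 8.45, 8.93 and 8.49 in LERKO replicates 1 to 3, against 8.97, 9.35 and 9.14 in CT replicates 1 to 3. Every LERKO mouse was below every CT mouse, and LERKO replicate 2 came within 0.05 of the lowest CT mouse. Osgin1 had a log2 fold change of −0.53 (unadjusted p = 0.0133 and adjusted p = 0.703 by limma, standard error 0.16), the lowest in the lists, and it ran from −0.68 to −0.43 with 1 mouse left out in turn. The glutathione transferases Gstm3 and Gstp1 had −0.19 and −0.23, and the efflux transporter Abcc4, which reached a signal of 100 in 3 arrays, had 0.24. With 1 mouse left out in turn they ran from −0.24 to −0.09 for Gstm3, from −0.38 to −0.14 for Gstp1 and from 0.09 to 0.44 for Abcc4, the low end for Abcc4 being without LERKO replicate 3 and the high end without CT replicate 1. Gstm3 belongs to a family of near-identical genes whose transcripts probes may share, and a further probe set of Gstm3 had −0.26 with overlapping groups. Gstm3, Gstm1 and Gstm4 are on chromosome 3. In the array's numbering the Gstm3 probe set used is nearer to that of Sesn1, on chromosome 10, than to those of Gstm1 and Gstm4. Which transcripts it reads was not tested. Hmox1, the heme oxygenase, named for its role after its values were seen, was at 7.30, 7.77 and 7.31 in LERKO and 7.68, 7.84 and 7.29 in CT, and its groups overlapped.

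In the glutathione system 15 of 22 genes passed the signal minimum, with 9 higher and 6 lower on average and a median of 0.06. Oplah, the oxoprolinase that returns oxoproline to glutamate, was at 9.35, 8.95 and 9.09 in LERKO replicates 1 to 3, against 8.79, 8.84 and 8.91 in CT replicates 1 to 3. Every LERKO mouse lay above every CT mouse, LERKO replicate 1 the farthest, and the log2 fold change of Oplah was 0.28 (unadjusted p = 0.0434 and adjusted p = 0.703 by limma, standard error 0.11), or 0.17 without LERKO replicate 1. Oplah has 2 probe sets of its own, and these values come from the one of highest mean alone. Gpx4, the peroxidase that reduces lipid hydroperoxides, also did not overlap between the groups and had 0.16, as did a further probe set of Gpx4 (0.16). Which transcripts the probe sets of Gpx4 read was not tested. Glrx and Glrx5, a cytosolic and a mitochondrial glutaredoxin, had 0.27 and 0.23 with overlapping groups, and 0.10 and 0.07 without CT replicate 2.

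In the thioredoxin and peroxiredoxin system 14 of 20 genes passed the signal minimum, 7 in each direction, with a median of −0.0021. Msrb3, which reduces oxidised methionine in proteins, was at 6.84, 6.74 and 6.85 in LERKO replicates 1 to 3, against 7.13, 7.32 and 7.15 in CT replicates 1 to 3. The LERKO mice were all below the CT mice by more than the spread within either group. Msrb3 had a log2 fold change of −0.38 (unadjusted p = 0.00231 and adjusted p = 0.703 by limma, standard error 0.08), which ran from −0.42 to −0.32 with 1 mouse left out in turn. The sestrins Sesn1 and Sesn3, which are tied to peroxiredoxin regeneration and nutrient sensing, had 0.12 and −0.25, and Txnrd2, the mitochondrial thioredoxin reductase, had 0.18. Sesn3 was at −0.11 without LERKO replicate 1, Sesn1 at 0.07 without CT replicate 2 and Txnrd2 at 0.08 without CT replicate 3.

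The 4 remaining lists held 0 genes with an unadjusted p under 0.05. In superoxide dismutation and copper supply 4 of 5 genes passed the signal minimum, and the extracellular dismutase Sod3 had a log2 fold change of −0.04, with either sign when 1 mouse was left out, and Ccs, the copper chaperone of Sod1, had 0.14 (0.09 without CT replicate 2). In NADPH supply it was 10 of 12, from −0.21 for Pgd to 0.15 for Taldo1, enzymes of the pentose phosphate pathway. Pgd was at −0.02 without LERKO replicate 1 and at −0.41 without CT replicate 2, and Taldo1 at 0.10 without CT replicate 2 and at 0.25 without LERKO replicate 1. In selenoprotein synthesis it was 10 of 11, from −0.13 for Eefsec, the elongation factor that delivers selenocysteine, to 0.17 for Secisbp2, which binds the selenocysteine insertion element. Secisbp2 passed the signal minimum only through LERKO replicate 3, 1 array of the group in which it is higher. Among oxidant sources it was 10 of 15. Nox4, an NADPH oxidase, had a log2 fold change of −0.34 (unadjusted p = 0.0548 and adjusted p = 0.703 by limma, standard error 0.14), which was −0.22 without LERKO replicate 3, and Cyp2e1, a cytochrome P450 that leaks oxidants, had 0.08 (0.04 without CT replicate 2) with all LERKO mice above all CT mice.

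**Figure D4:**
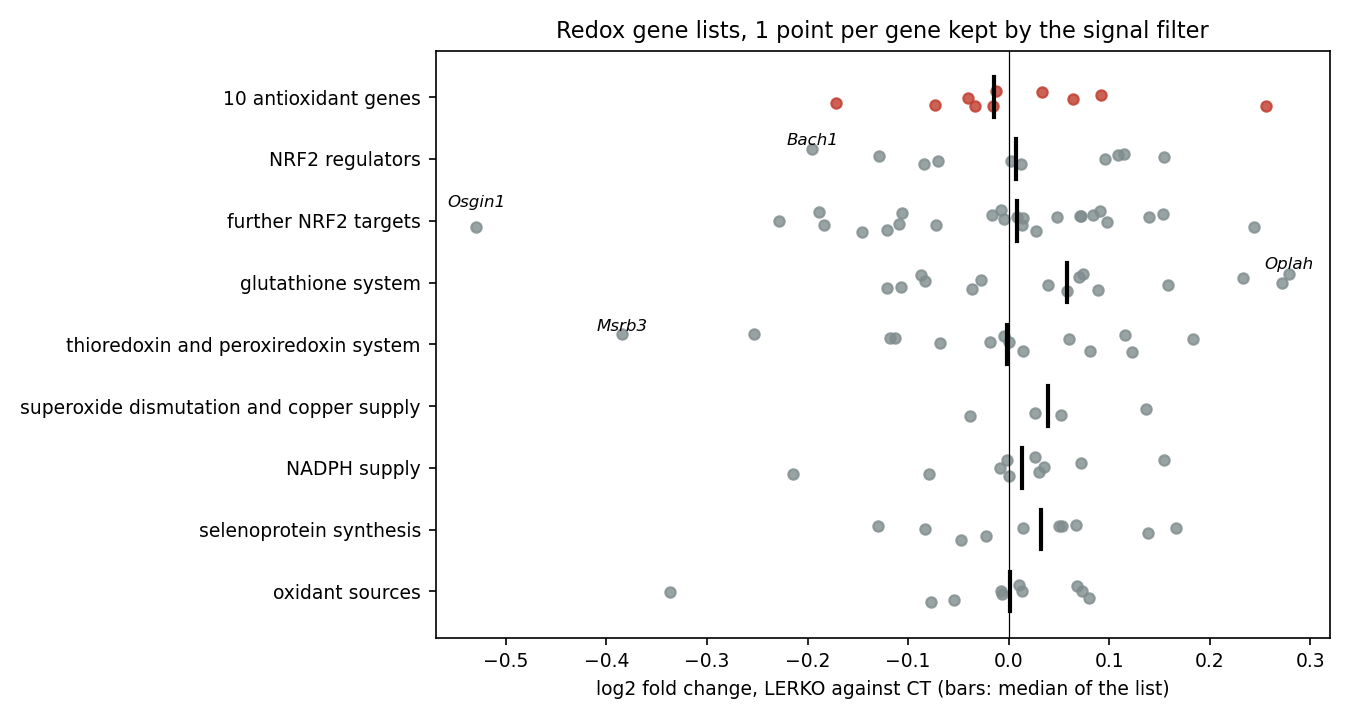
Log2 fold change of LERKO against CT for the 10 antioxidant genes (red, top) and for the genes of 8 wider lists that passed the signal minimum (grey), 1 point per gene, with a black bar at the median of each list. The medians lie between −0.01 and 0.06, and the 4 named genes are those with an unadjusted p under 0.05.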

How the data were processed

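RMA (robust multichip average), run by the authors in the oligo package, gave the deposited values, which are background-corrected, quantile-normalized log2 signals per probe set, 1 column per mouse. The genome build behind the array's annotation is not given in the sources used here. The annotation pairs 21218 of 35556 probe sets with 1 gene, and only these were named, 21185 of them through the RefSeq gene table for current symbols; 1881 have several genes and 12457 have none.

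Probe sets with at least 1 array at a signal of 100 were kept, 10633 in number. LERKO and CT were compared with limma 3.58.1 (lmFit and eBayes, R 4.3.3) in all 6 arrays, two-sided, adjusted by Benjamini-Hochberg over the 10633 at a false discovery rate of 5%. Intervals are 95% intervals from the same fit. Each array reached a signal of 100 for 9452 to 9865 probe sets, and precision is limited by the number of arrays. With 3 mice a group, 0.1 is the smallest p of an exact permutation test. The fit was checked on simulated data with known changes, drawn with independent normal noise and without RNA of other organs. It recovered 55.4% of 1.5-fold and 82.5% of 2-fold changes there. In the mice Esr1, 3.13-fold lower in LERKO, had an adjusted p of 0.149 from limma. The simulated shares therefore cannot be taken as the shares found in these mice.

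The 10 genes and the wider lists were chosen with earlier results of these data known. Named besides the 10 and Esr1 are up to 4 genes of largest absolute log2 fold change in each list and those with an unadjusted p under 0.05. The alternatives were other signal filters, variance models, array weights, normalizations, a block for the replicate number, the methods' t-test, other probe sets of a gene and arrays left out. The labels call the mice biological replicates.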

Additional observations from a re-analysis of the deposited data

How the results depend on the processing

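For the 10 genes, 180 log2 fold changes were recomputed over 19 alternatives, 0 reached an adjusted p under 0.05, and the smallest was 0.633. Of these, 166 kept their sign and 14 changed it. Nqo1 is not counted without CT replicate 1 or where a signal of 100 was required in all 6 arrays, as it fell below the minimum there. Over the whole table, 0 probe sets were called by limma at an adjusted p under 0.05, 3 where a signal of 100 was required in all 6 arrays, 1 with a mean-variance trend, and 0 to 1 with 1 mouse left out. Esr1, at −1.65, had an adjusted p of 0.0409 and 0.0485 in the first 2 of these, and ran from −1.76 to −1.51 with 1 mouse left out. With the replicate number as a block, 1 of the 10 genes had an unadjusted p under 0.05 (Srxn1, 0.0393), and 574 probe sets did, beside 742 without the block. Same-numbered mice deviated with correlations of −0.157, −0.0731 and −0.137, and no mouse correlated best with its own number.

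With 1 mouse left out, 0 to 1 of the 10 genes had an unadjusted p under 0.05, 0 to 3 did not overlap, beside 19.7% to 29.2% of all probe sets, and the median ran from −0.033 to 0.023. The 3 came without CT replicate 1, where Nqo1 fell below the signal minimum and 9 genes were tested. Without CT replicate 3 and LERKO replicate 2 it was 0.050, with 4 genes not overlapping. Without both, the log2 fold changes of changed sign were 0.082 for Nfe2l2, 0.10 for Gclm, 0.019 for Cat, −0.0029 for Slc31a1 and −0.083 for Mthfd1. With 1 mouse left out, Nfe2l2 ran from −0.082 to 0.062, Gclm from −0.083 to 0.071, Cat from −0.058 to 0.0036, Sod3 from −0.23 to 0.064, Slc31a1, a copper importer, from −0.0063 to 0.051 and Mthfd1, a folate enzyme, from −0.010 to 0.12. Nfe2l2 was 0.032 with array weights and 0.0011 after cyclic loess, Gclm 0.0021 after cyclic loess and 0.0042 after quantile normalization, and Sod1 0.0053 over the mean of its probe sets and 0.084 on the lower. The cause of these shifts was not tested.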
